A study of Homo sapiens with 8 samples.

Results

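The G1/S and DNA replication genes described here are 38 genes of the 23391 in the deposited count table, taken as the rows whose name stands on a list of replication factors and G1/S regulators. They were measured by RNA-Seq in DU145 cells, a human prostate cancer line. The cells were stably transfected pools, selected with 150 μg/ml Zeocine for 3 weeks, that carried the empty vector pcDNA3.1 (DU145-pc3.1) or the same vector expressing Esrrb, an orphan nuclear receptor (DU145-Esrrb). Each pool was sequenced without DY131, which the series record calls vehicle treatment, and with 3 μM DY131. DY131 is a synthetic ligand of the estrogen related receptors Esrrb and Esrrg. There were 2 biological replicates in each of the 4 groups. All cells were grown in medium with charcoal-stripped serum, the length of the DY131 treatment is not given in the sources used here, and each condition rests on pools of 1 line. Growth was not measured in these libraries. Members fell into 8 roles, and all 38 passed the filter on low counts (a level of 1 or more cpm, counts scaled to library size, in 2 libraries or more).

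Before S phase, the origin recognition complex (ORC), CDC6 and CDT1 load the MCM2 to MCM7 helicase onto DNA, which licenses an origin. MCM10, CDC45 and the GINS complex turn the loaded helicase into an active one, and DNA polymerase alpha with primase then starts the new strands. Polymerases delta and epsilon extend them, held to DNA by the sliding clamp PCNA that the RFC complex loads. Cyclin E with its kinase and the E2F transcription factors drive the passage from G1 into S phase, and many replication genes are E2F targets whose transcripts rise in late G1.

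The 8 libraries held between 7858743 and 11551690 counts on genes, and the 38 genes together took between 0.361% and 0.458% of them. ESRRB was counted 3 and 0 times in DU145-pc3.1, 104 and 99 times in DU145-Esrrb, 0 and 1 times in DY131-treated DU145-pc3.1, and 105 and 143 times in DY131-treated DU145-Esrrb cells, so each library went with its labelled pool. The epithelial keratins KRT8, KRT18 and KRT19 were at group means of at least 399 cpm. Of luminal prostate markers, KLK2 and KLK3 were at 0 in every group, while SLC45A3 had group means of up to 8.21 cpm. Of 6 stromal markers, COL1A1 had 2.84 to 4.59 cpm and the others at most 0.510. The 6 leukocyte markers had at most 1.41 cpm, with CD3E at 0. The treated DU145-pc3.1 replicates lay furthest apart, with a chi-square per degree of freedom between the 2 libraries of 7.34 over all genes against 1.30 to 2.67 in the other groups.

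In untreated DU145-pc3.1 cells, the level per kilobase of transcript ran from 4.68 cpm per kb for POLA1 and 4.93 for CCNE1 to 117 for PCNA and 134 for TK1. All cpm below use effective library sizes and compare 1 gene across libraries. A bulk sample cannot tell fewer cells in S phase from less RNA of these genes per cell.

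The promoters of 34 of the 38 genes were found in the RefSeq promoter table (GRCh38.p14, 250 bases before to 50 bases after the annotated start), and those of MCM4, MCM5, GINS4 and CCNE2 are not analysed here. E2F-type letters, searched on both strands as TTTCGCGC, TTTGGCGC, TTTCCCGC or TTTGCCGC, were in 18 of the 34 (52.9%), and in 3.32% of all 35116 promoters of that length. CCAAT was in 20 of the 34 (58.8%) and in 34.6% of all promoters. The letters TCAAGGTCA, a site type of estrogen related receptors, were in 0 of the 34 and in 0.353% of all promoters. The E2F-type letters stand more than once in the promoters of E2F1, MCM2, MCM3, MCM6 and MCM7. Of these, E2F1 and MCM6 are shown, beside the 4 genes with the largest falls under DY131 in DU145-Esrrb cells. The windows shown run from 160 bases before to 20 bases after the start. They are written 5′ to 3′ on the gene's strand, with E2F-type letters or their reverse complement in capitals. In MCM6, matches on opposite strands overlap in each run of capitals.
E2F1 (chr20:33686366-33686545, minus strand): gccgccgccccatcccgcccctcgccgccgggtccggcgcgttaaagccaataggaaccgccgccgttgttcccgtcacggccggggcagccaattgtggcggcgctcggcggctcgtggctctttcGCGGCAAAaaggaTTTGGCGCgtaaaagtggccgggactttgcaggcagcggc
MCM6 (chr2:135876424-135876603, minus strand): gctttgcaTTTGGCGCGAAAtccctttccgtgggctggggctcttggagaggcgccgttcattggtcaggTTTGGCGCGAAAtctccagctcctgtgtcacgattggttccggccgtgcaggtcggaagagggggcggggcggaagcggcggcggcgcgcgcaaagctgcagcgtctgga
POLE2 (chr14:49688195-49688374, minus strand): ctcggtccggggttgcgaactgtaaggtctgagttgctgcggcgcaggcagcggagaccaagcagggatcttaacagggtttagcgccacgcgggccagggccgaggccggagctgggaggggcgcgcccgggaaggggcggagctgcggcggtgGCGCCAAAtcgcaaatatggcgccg
LIG1 (chr19:48170325-48170504, minus strand): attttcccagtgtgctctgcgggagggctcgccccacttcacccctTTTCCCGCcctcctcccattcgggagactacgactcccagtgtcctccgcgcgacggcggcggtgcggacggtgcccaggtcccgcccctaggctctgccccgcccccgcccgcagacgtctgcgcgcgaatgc
PRIM1 (chr12:56752304-56752483, minus strand): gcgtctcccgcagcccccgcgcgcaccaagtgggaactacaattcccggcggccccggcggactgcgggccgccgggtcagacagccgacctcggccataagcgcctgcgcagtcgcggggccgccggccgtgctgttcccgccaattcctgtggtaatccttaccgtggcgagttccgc
POLD1 (chr19:50384163-50384342, plus strand): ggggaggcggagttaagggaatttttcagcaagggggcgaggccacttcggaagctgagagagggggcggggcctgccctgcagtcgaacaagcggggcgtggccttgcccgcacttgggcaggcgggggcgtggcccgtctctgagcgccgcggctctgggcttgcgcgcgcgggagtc
POLE2 and LIG1 each held 1 match in these windows, and PRIM1 and POLD1 held 0, which says only that these letters are not there.

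**Figure D1:**
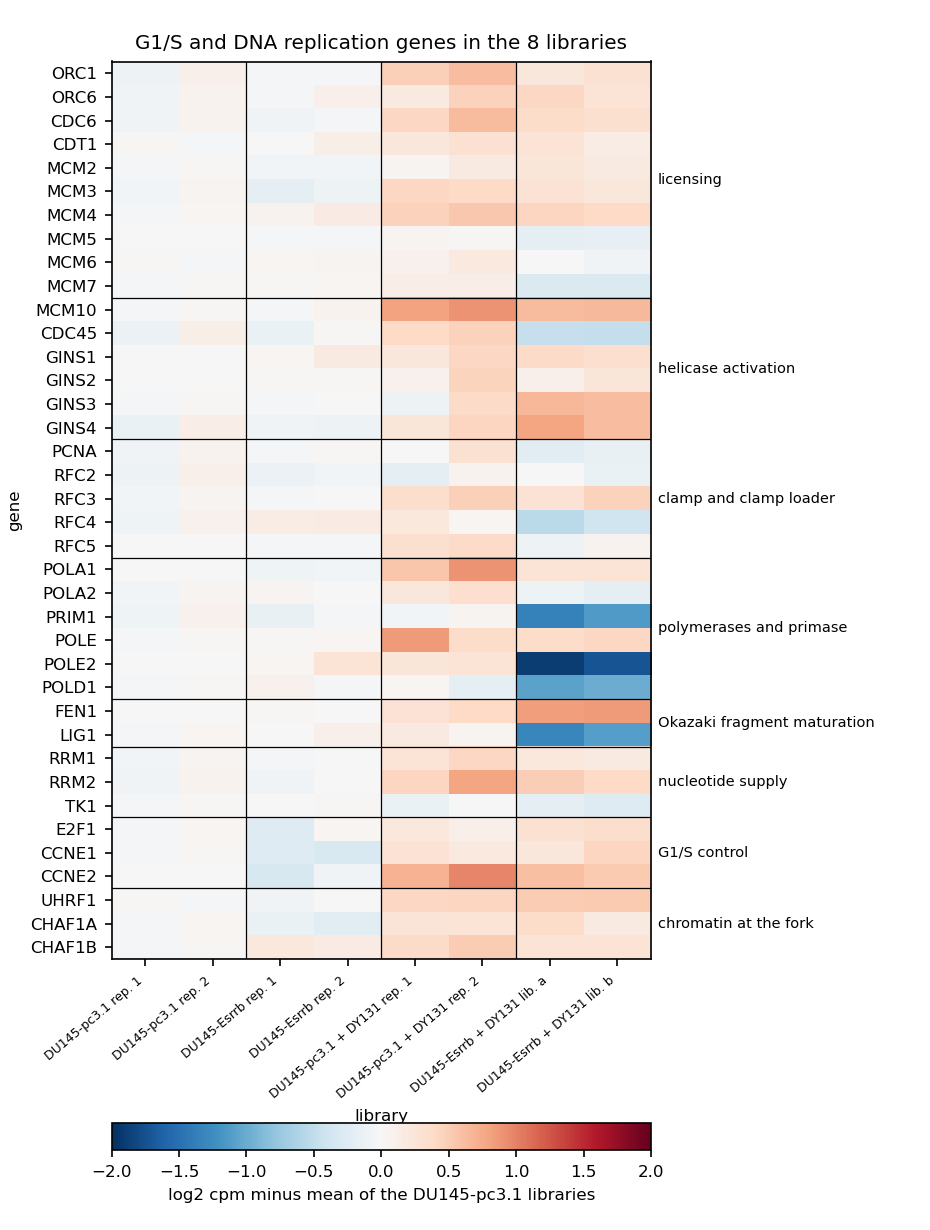
Heat map of the 38 genes, grouped by role, in the 8 libraries, with colour for the log2 cpm of a library minus the mean of the 2 DU145-pc3.1 libraries. The untreated columns are pale and the DY131-treated DU145-pc3.1 columns are mostly red. In both libraries of treated DU145-Esrrb cells, POLE2 is dark blue, and LIG1, PRIM1 and POLD1 are a lighter blue.

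Esrrb expression alone changed none of the 38 genes. No member passed an adjusted p under 0.05 in DU145-Esrrb against DU145-pc3.1 cells by the quasi-likelihood test of edgeR, adjusted by Benjamini-Hochberg over 13856 tested genes, of which 2.5% fell and 1.68% rose. The median log2 fold change (log2FC) of the members was -0.01 and that of all tested genes 0.00. MCM3, CHAF1A and CHAF1B had an unadjusted p under 0.05, and edgeR's exact test and DESeq2 also called 0 members. The lowest value was that of CCNE1, the gene of cyclin E1, with 9.92 and 10.2 cpm in DU145-pc3.1 and 8.40 and 8.18 cpm in DU145-Esrrb cells, a log2FC of -0.28 ± 0.15 (SE) with an adjusted p of 0.355. The highest was that of CHAF1B, a subunit of the chromatin assembly factor CAF-1, at 0.19 ± 0.08 with an adjusted p of 0.229. Standard errors of the members lay between 0.05 and 0.15, which sets the size of change these 4 libraries could show.

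In DU145-pc3.1 cells, with 0 to 3 counts of ESRRB a library, DY131 raised 25 of the 38 genes and lowered none of them. Among all tested genes 18.9% rose and 18.5% fell, so the falls were as frequent as the rises in the background. The median log2FC of the members was 0.30, against 0.00 for all tested genes. None of the members reached a 2-fold change, which 1.02% of the tested genes did upwards and 3.16% downwards. Beside the 0 falls by adjusted p, 0 members fell at an unadjusted p under 0.05, and DESeq2 called 20 members and edgeR's exact test 24.

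The largest rise was that of MCM10, which helps to activate the loaded helicase. MCM10 was at 51.8 and 53.4 cpm in untreated and at 91.5 and 98.3 cpm in DY131-treated DU145-pc3.1 cells, a log2FC of 0.85 ± 0.07 (SE) with an adjusted p of 5.04e-07. CCNE2, the gene of cyclin E2, went from 26.4 and 26.0 cpm to 42.5 and 51.4 cpm, with a log2FC of 0.84 ± 0.11 and an adjusted p of 2.26e-05. The libraries of the 2 groups did not overlap for either gene, and the share of all tested genes without overlap was not counted. POLA1, the catalytic subunit of polymerase alpha, rose by 0.74, POLE, that of polymerase epsilon, by 0.64, and RRM2, the regulated subunit of ribonucleotide reductase, by 0.62. POLE differed between the treated replicates, at 130 and 92.9 cpm, as did RRM2 at 349 and 445 cpm. RRM2 shares 33.2% of its 50-base windows with transcripts of other genes, so its counts are uncertain.

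By role, 7 of 10 licensing genes rose in DU145-pc3.1 cells, with log2FC from 0.14 for MCM7 to 0.54 for ORC1, the largest subunit of ORC. ORC6, CDC6, CDT1, MCM3 and MCM4 lay between them. MCM2, MCM5 and MCM6 did not pass, with 0.12, 0.04 and 0.15. Of the 6 genes of helicase activation, MCM10, CDC45, GINS1, GINS2 and GINS4 rose and GINS3 did not pass at 0.15. RFC3 and RFC5, subunits of the clamp loader, rose by 0.42 and 0.35, while PCNA (0.16), RFC2 (-0.06) and RFC4 (0.13) did not pass.

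Among polymerase genes, POLA1, POLA2, POLE and POLE2 rose, and PRIM1, the catalytic subunit of primase, and POLD1, that of polymerase delta, had values of 0.00 and -0.06. FEN1, the nuclease that trims Okazaki fragment flaps, rose by 0.35, while LIG1, the ligase that joins the fragments, had 0.12. RRM1 and RRM2 rose, and TK1, thymidine kinase of the salvage pathway, had -0.07. All 3 genes of chromatin at the fork rose, UHRF1 by 0.42, CHAF1A by 0.26 and CHAF1B by 0.45. Of the G1/S control genes, E2F1 and CCNE1 did not pass at 0.15 and 0.24. E2F1 was at 55.6 and 58.4 cpm in untreated and at 65.7 and 60.9 cpm in treated cells.

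Smaller rises depended on single libraries. MCM7 and GINS2, at adjusted p of 0.0495 and 0.0488, lost the call in 6 and 7 of the 8 fits that leave out 1 library, with adjusted p up to 0.21 and 0.493. Without DU145-pc3.1 replicate 1, ORC6, GINS4, POLA2, POLE2 and CHAF1A also lost it and 18 members rose. Without DU145-pc3.1 replicate 2, CDT1, GINS1 and POLE2 did, and 20 rose. Without replicate 2 of the treated cells, ORC6 and POLE2 did, and 23 rose. Without replicate 1 of the treated cells, 29 rose.

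**Figure D2:**
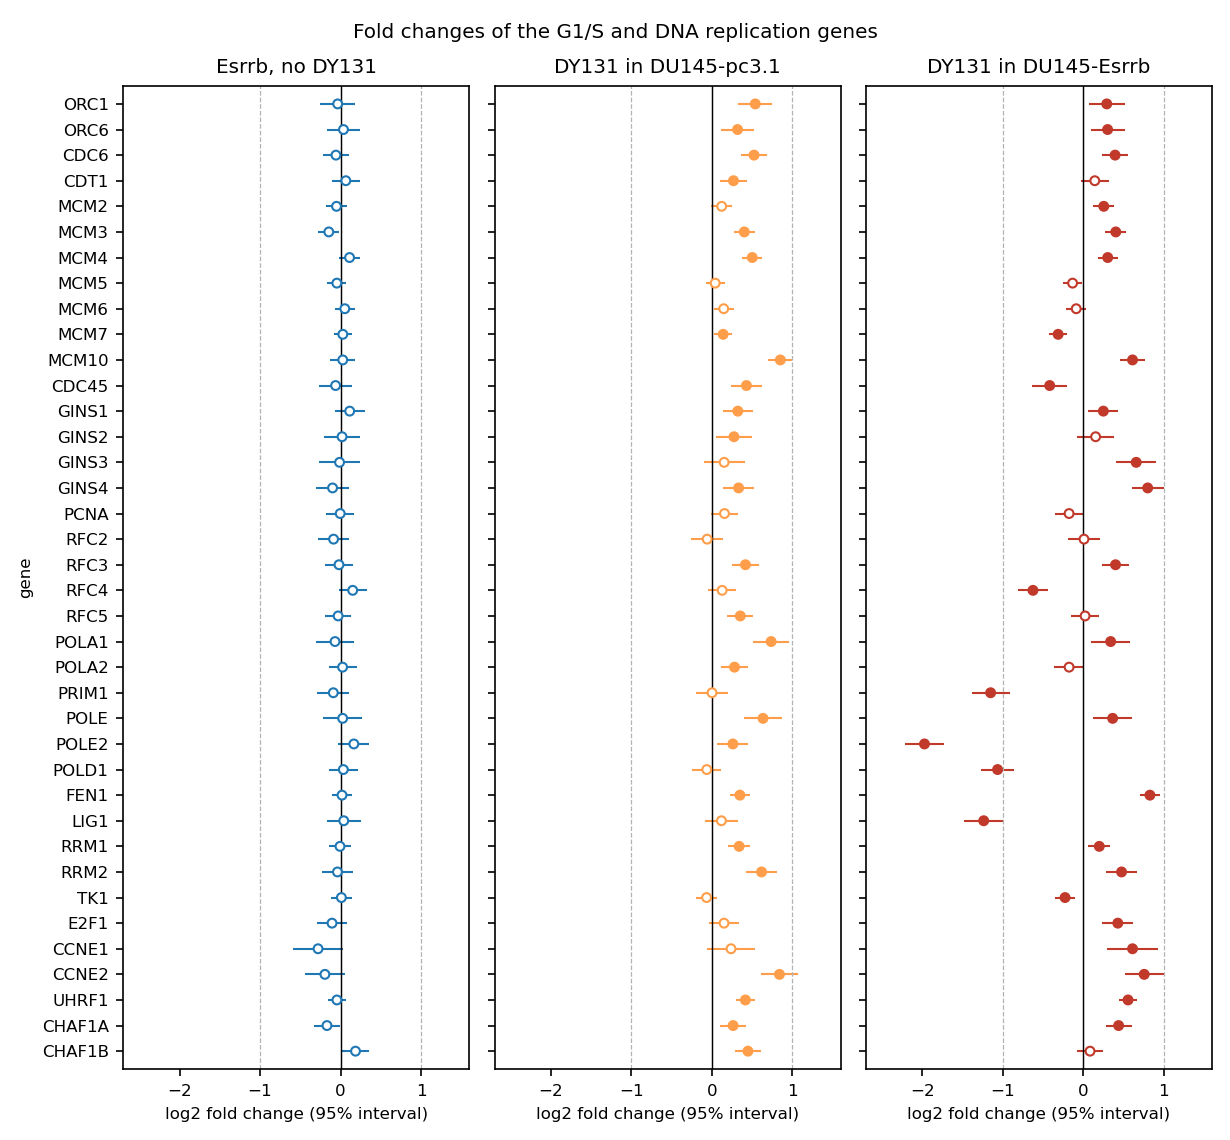
Log2 fold changes of the 38 genes with 95% intervals for Esrrb without DY131, DY131 in DU145-pc3.1 and DY131 in DU145-Esrrb cells, with filled points at an adjusted p under 0.05 and dashed lines at 2-fold. The first panel has no filled point, the second has 25, all to the right of 0, and the third has 21 to the right and 8 to the left.

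In DU145-Esrrb cells, DY131 raised 21 of the 38 genes and lowered 8, and 9 did not pass. In the same comparison 29.2% of all tested genes rose and 29.5% fell. The median log2FC of the members was 0.25, against 0.00 for all tested genes. POLE2, LIG1, PRIM1 and POLD1 fell at least 2-fold, which 9.04% of the tested genes did, and no member rose that far, as 2.98% did. By the untreated-against-treated comparison within each pool, which share no library, 17 genes rose in both pools, 68% of the 25 that rose in DU145-pc3.1 and 81% of the 21 that rose in DU145-Esrrb cells. Among all tested genes 63.2% of those that rose in DU145-pc3.1 also rose in DU145-Esrrb cells, and these were 40.9% of those that rose in DU145-Esrrb cells. CDC45, MCM7 and POLE2 rose in DU145-pc3.1 and fell in DU145-Esrrb cells, 12% of the 25, a share close to the 11% among all tested genes that rose in DU145-pc3.1 cells. With an offset for the share of exon junctions, POLE2 was the only member with opposite calls.

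POLE2 had the largest fall of the 38 genes, followed by LIG1, PRIM1 and POLD1. POLE2 encodes the second subunit of polymerase epsilon, the leading strand polymerase, and lies on chromosome 14 from 49643555 to 49688422 (GRCh38, GENCODE 29). It was at 39.8 and 46.8 cpm in untreated and at 10.3 and 11.6 cpm in treated DU145-Esrrb cells, a log2FC of -1.97 ± 0.12 (SE) with an adjusted p of 2.51e-09. The mean of 11.0 ± 0.950 cpm (SD, n = 2) stood against 38.6 ± 0.120 in DU145-pc3.1 and 46.2 ± 0.854 in treated DU145-pc3.1 cells, so only the treated DU145-Esrrb libraries were low. POLE, the catalytic subunit of the same enzyme, rose in the same libraries from 72.7 and 73.8 cpm to 92.3 and 96.2 cpm, a log2FC of 0.37 ± 0.11 with an adjusted p of 0.0109. The transcripts of these subunits thus changed in opposite directions.

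POLD1, the catalytic subunit of polymerase delta on chromosome 19 from 50384204 to 50418016, was at 61.4 and 56.5 cpm in untreated and at 27.2 and 29.1 cpm in treated DU145-Esrrb cells. Its log2FC was -1.06 ± 0.09 with an adjusted p of 2.01e-07. PRIM1, on chromosome 12 from 56731596 to 56752373, makes the RNA primers with polymerase alpha. It went from 36.2 and 39.4 cpm to 15.6 and 18.2 cpm, a log2FC of -1.15 ± 0.11 with an adjusted p of 4.79e-07. Neither gene passed in DU145-pc3.1 cells, with 59.3 and 50.8 cpm (POLD1) and 38.7 and 41.8 cpm (PRIM1) under DY131. POLA1 rose by 0.34, while POLA2, its partner subunit, had -0.18 with an adjusted p of 0.0912. PRIM1, POLD1 and POLA2 share 23.3%, 11.1% and 54.1% of their 50-base windows with other genes, and their values are uncertain to that extent.

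The 2 genes of Okazaki fragment maturation moved in opposite directions. LIG1, on chromosome 19 from 48115445 to 48170603, was at 27.1 and 29.2 cpm in untreated and at 11.1 and 12.7 cpm in treated DU145-Esrrb cells, with a log2FC of -1.24 ± 0.12 and an adjusted p of 3.89e-07. FEN1 was at 153 and 151 cpm in untreated and at 268 and 272 cpm in treated DU145-Esrrb cells, the largest rise of the 38 genes at 0.83 ± 0.06 with an adjusted p of 1.31e-08. Treated DU145-pc3.1 cells had 184 and 198 cpm of FEN1 and 31.0 and 28.3 cpm of LIG1, so the treated DU145-Esrrb libraries were outermost for both genes.

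Genes of helicase loading and activation mostly rose with DY131 in DU145-Esrrb cells. Of the 10 licensing genes 6 rose, with log2FC from 0.26 for MCM2 to 0.40 for MCM3, and ORC1, ORC6, CDC6 and MCM4 lay between them. MCM2 was at 158 cpm in both untreated libraries and at 192 and 184 cpm in the treated ones (adjusted p 0.00186). MCM7 fell by 0.31 on the log2 scale, from 215 and 217 cpm to 174 cpm in both treated libraries (adjusted p 0.00016). MCM5 (-0.13), MCM6 (-0.09) and CDT1 (0.14) did not pass, so the 6 subunits of the MCM2 to MCM7 ring did not all change in 1 direction.

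MCM10, GINS1, GINS3 and GINS4 rose, by 0.61, 0.25, 0.66 and 0.80. GINS2, the remaining GINS subunit, had 0.15. CDC45, which joins MCM and GINS in the active helicase, went from 34.0 and 38.1 cpm to 27.1 and 26.8 cpm, a log2FC of -0.42 ± 0.10 with an adjusted p of 0.0027. Among the clamp and its loader, RFC3 rose by 0.40 and RFC4 fell by 0.62 on the log2 scale, with RFC2 at 0.01 and RFC5 at 0.02. PCNA was at 157 and 161 cpm in untreated and at 138 and 143 cpm in treated cells, a log2FC of -0.18 ± 0.08 that did not pass (adjusted p 0.0795).

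The 3 genes of G1/S control rose. CCNE1 was at 8.40 and 8.18 cpm in untreated and at 11.7 and 13.6 cpm in treated DU145-Esrrb cells, a log2FC of 0.61 ± 0.15 with an adjusted p of 0.0021. CCNE2 was at 20.9 and 25 cpm and then at 39.9 and 37.6 cpm, a log2FC of 0.76 ± 0.11 with an adjusted p of 3.85e-05. E2F1, which activates transcription of replication genes, was at 47.7 and 58.5 cpm and then at 70.3 and 72.5 cpm, a log2FC of 0.43 ± 0.09 with an adjusted p of 0.000756. For all 3 genes both treated libraries lay above both untreated ones. The share of all tested genes with such a separation was not counted, and 29.2% of them rose in this comparison.

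In nucleotide supply, RRM1 rose by 0.20 and RRM2 by 0.48, and TK1 fell by 0.23 on the log2 scale. UHRF1, which reads hemimethylated DNA behind the fork, rose by 0.56 and CHAF1A by 0.44, and CHAF1B had 0.08. Of the 8 falls, that of TK1 lost the call in 1 of the 8 fits that leave out a library, without treated DU145-Esrrb library b (log2FC -0.19, adjusted p 0.0695), and the other 7 kept it in all 8. Rises of ORC1, ORC6, GINS1, POLA1, POLE and RRM1 lost the call in 2 to 4 of these fits, when either treated DU145-Esrrb library or DU145-Esrrb replicate 1 or 2 was left out, with adjusted p up to 0.2. The count of members changed then lay between 23 and 31.

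**Figure D3:**
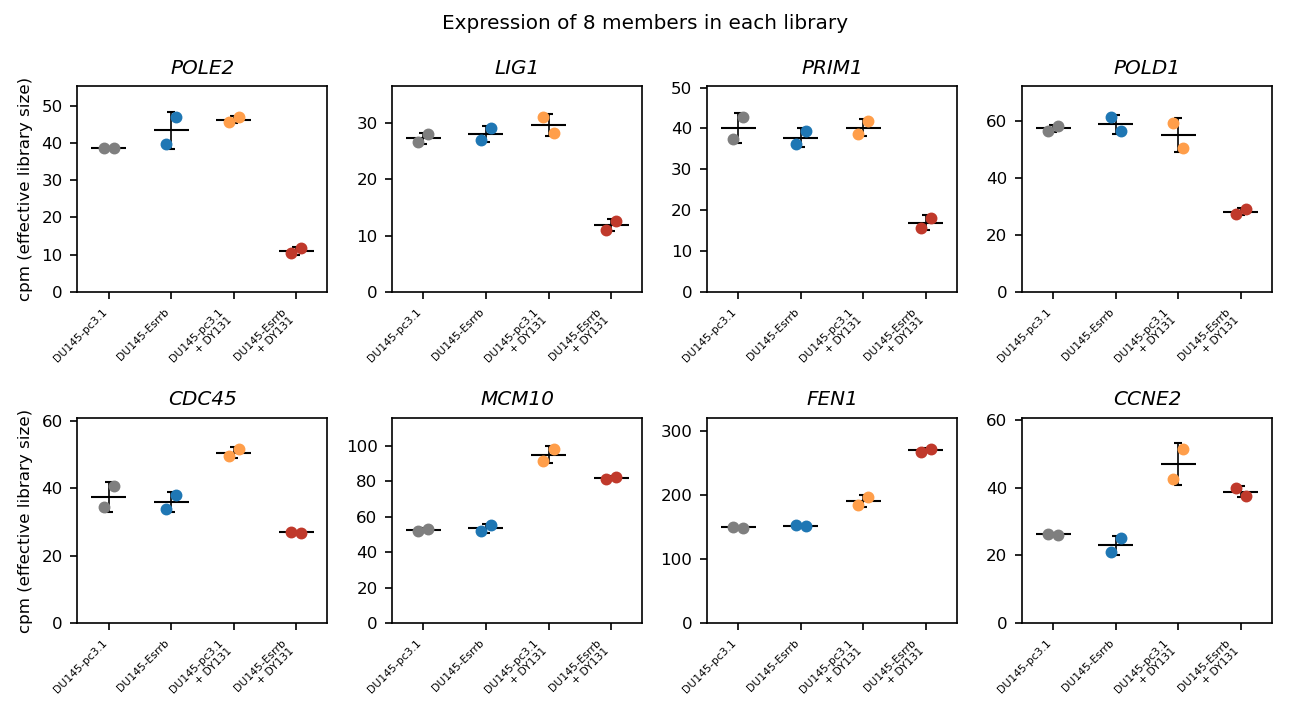
Expression in cpm of POLE2, LIG1, PRIM1, POLD1, CDC45, MCM10, FEN1 and CCNE2 in each of the 8 libraries (points), with the mean (line) and SD (bars, n = 2) of each group. POLE2, LIG1, PRIM1, POLD1 and CDC45 are lowest in treated DU145-Esrrb cells, FEN1 is highest there, and MCM10 and CCNE2 are raised in both treated groups.

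Exon structure moved with these falls. For each transcript, the share of 50-base windows (the read length) that lie across an exon junction was computed from GENCODE 29. Across 13665 tested genes, Spearman's rho between this junction share and the log2FC was -0.374 for DY131 in DU145-Esrrb cells and 0.010 for DY131 in DU145-pc3.1 cells. These are descriptions across genes that share the same libraries. Against DU145-pc3.1 cells, the 729 genes with a junction share of at least 35% had a median of -0.68 on the log2 scale in both treated DU145-Esrrb libraries and between -0.03 and 0.03 in the other 6. As both libraries of 1 group carried this relation and no other library did, it cannot be told apart from the combination of Esrrb with DY131.

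The members are richer in junctions than most genes, with a median share of 21.1% against 14.3% for all, and a range from 2.18% for FEN1 to 47.8% for POLE2. Over the 38 members rho was -0.592 for DY131 in DU145-Esrrb cells. All 8 falls were among the 30 members above the median of all genes, of which 26.7% fell and 50% rose, where 42.8% of all tested genes above that median fell and 18.1% rose. Of the 8 members at or below the median, 6 rose and 0 fell, where 40.3% of all tested genes at or below it rose and 16.4% fell.

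Members were therefore set beside genes with a like junction share. POLE2, LIG1, PRIM1, POLD1, RFC4 and CDC45, with shares of 36.7% to 47.8%, are in the decile of genes richest in junctions, whose median log2FC was -0.55 with quartiles of -1.03 and -0.14. In that decile 6.14% of genes had a lower value than POLE2, 19% than LIG1, 21.7% than PRIM1 and 23.8% than POLD1. RFC4 and CDC45 lay near the middle, with 45.5% and 59.5% of the genes lower. POLA1, also in this decile at a share of 32.3%, was above 92.6% of it. The median share in this decile was 35.3%, so genes closer in share were also used. From 35% to 40% (LIG1, POLD1, RFC4) the median was -0.64 and the lower quartile -1.05. From 40% to 45% (PRIM1) they were -0.73 and -1.17, and from 45% to 50% (POLE2, CDC45) -0.74 and -1.59. PRIM1, RFC4 and CDC45 lay above the lower quartile of their group, POLD1 just below it, and LIG1 and POLE2 below it. MCM7 and TK1, with shares of 23.6% and 17.5%, had 37.6% and 34.3% of the genes of their own deciles below them. FEN1, the largest rise, has the lowest share of the members at 2.18%, in a decile with a median log2FC of 0.26. It was above 88.1% of that decile, while CCNE2, CCNE1 and MCM10 were above 96.3%, 95.6% and 93.9% of theirs.

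A refit gave each library an offset that follows the junction share. Of the members 22 then rose and 6 fell with DY131 in DU145-Esrrb cells (25.6% and 27.9% of the 13665 genes in that fit), and the median log2FC was 0.33. In this fit 31.9% of all genes with a junction share of 35% to 40% fell, 27.1% from 40% to 45% and 29.7% from 45% to 50%. The offset takes out the mean trend only, so passing does not set a member apart from genes of like share. Falls of POLE2 (-0.97, adjusted p 5.63e-06), LIG1 (-0.61), POLD1 (-0.52), PRIM1 (-0.34), TK1 (-0.21) and MCM7 (-0.19) still passed. None of them reached 2-fold in this fit, where 7.54% of the genes fell and 2.62% rose that far, with 0 members past that fold also at an unadjusted p under 0.05. RFC4 no longer passed, at -0.11, and CDC45 rose, at 0.50 with an adjusted p of 0.000726. The sign of CDC45 thus changed with the offset. Genes with a junction share of 45% to 50%, CDC45 among them, had a median of 0.21 in this fit. Their quartiles were -0.59 and 0.72, and the value of CDC45 lay between them. GINS1 no longer passed either, at 0.05, and RFC2 passed at 0.25. When length and GC content entered the offset too, 6 members fell and 21 rose (29.4% and 24.3% of the genes). POLE2, at -1.19, was the only member altered at least 2-fold, where 7.08% of the genes fell and 2.78% rose that far. CDC45 was at 0.31, and MCM7 and TK1 did not pass. Leaving out a treated DU145-Esrrb library in the junction offset fit also ended calls, and 4 members fell and 20 rose in either case. RFC2 did not pass in either case, nor did ORC6, PRIM1 and MCM7 without library a, or MCM7, TK1 and E2F1 without library b.

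**Figure D4:**
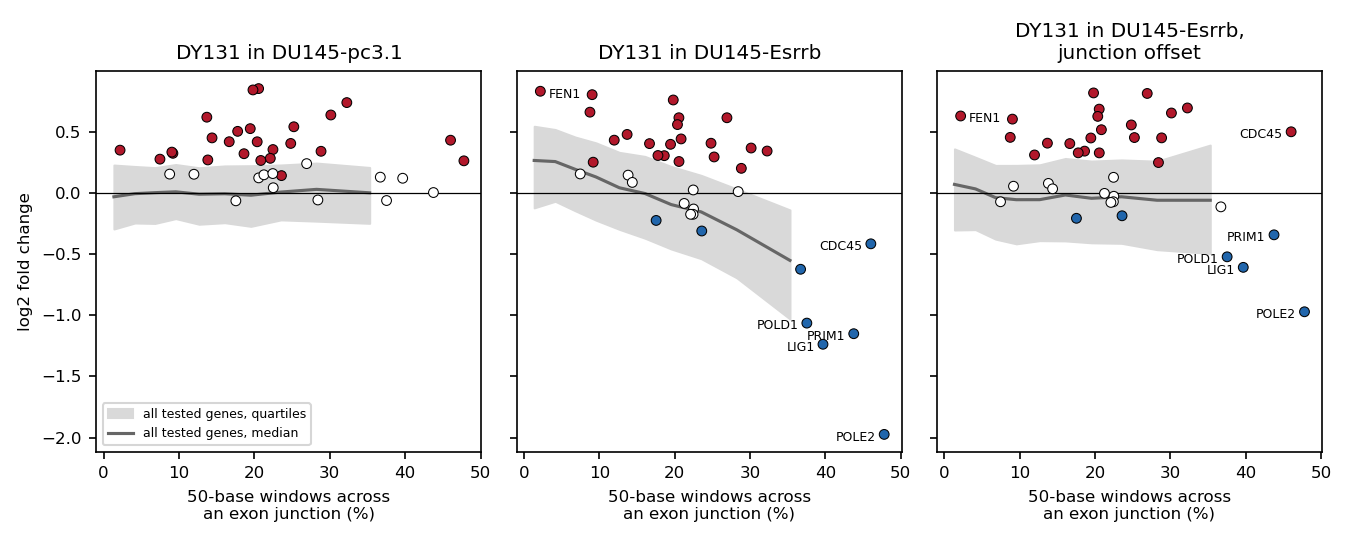
Log2 fold change of the 38 genes (points, red where they rose, blue where they fell, white where they did not pass) against their junction share in %, with the median and quartiles of all tested genes in deciles of that share. The grey band is flat for DY131 in DU145-pc3.1, slopes down to a median of -0.55 for DY131 in DU145-Esrrb cells and is nearly flat again with the junction offset, where CDC45 stands above 0.

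The interaction asks whether the DY131 effect differed between the pools (effect in DU145-Esrrb minus effect in DU145-pc3.1 cells). It was lower in DU145-Esrrb cells for 12 members and higher for 3, by an adjusted p under 0.05 of edgeR's quasi-likelihood test. Of all tested genes 17.6% were lower and 16.1% higher. The median over the members was -0.15, against 0.00 for all tested genes. All 12 lower members were above the median junction share of all genes, where 28.8% of all tested genes were lower. All 3 higher ones were at or below it, where 26% were higher. Above it the median difference was -0.24 for members and -0.19 for all tested genes, and at or below it 0.10 and 0.19. POLE2 had the largest difference at -2.23 ± 0.15 (SE), followed by LIG1 at -1.36, PRIM1 at -1.15 and POLD1 at -1.001, the 4 members past a 2-fold difference, which 4.74% of the tested genes had downwards and 1.54% upwards. CDC45 (-0.85), RFC4 (-0.75), POLA2 (-0.46), MCM7 (-0.45), CHAF1B (-0.36), PCNA (-0.33), RFC5 (-0.33) and MCM6 (-0.23) were also lower. GINS3 (0.51), FEN1 (0.48) and GINS4 (0.47) were higher.

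Without an offset, 4 of 6 polymerase genes and 3 of 5 genes of the clamp and its loader were lower, and with the junction offset 3 of 6 and 0 of 5. Whether roles differed was not tested. None of the 3 genes of nucleotide supply or of the 3 of G1/S control passed, so the rises of CCNE1 and E2F1, called only in DU145-Esrrb cells, were not shown to differ between the pools (0.37 with an adjusted p of 0.168 for CCNE1, 0.28 with 0.103 for E2F1). MCM2 had 0.13 with an adjusted p of 0.242. MCM10 (-0.24, adjusted p 0.0816) and CCNE2 (-0.08, adjusted p 0.721) also did not pass, with 95% intervals of -0.45 to -0.02 and -0.41 to 0.25.

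With the junction offset, 6 members were lower (POLE2, LIG1, POLD1, CHAF1B, POLA2 and MCM7) and 2 higher (CCNE1 and FEN1), where 12.9% and 9.95% of the genes in that fit were. POLE2 was at -1.30 (adjusted p 1.86e-05) and the only member past a 2-fold difference, which 3.26% of the genes had downwards and 1.17% upwards. LIG1 was at -0.74 and POLD1 at -0.47, and CDC45 was at 0.01. PRIM1 did not pass, at -0.39 with an adjusted p of 0.0697. The number of members with a difference also depended on single libraries. It was 23 without replicate 1 of treated DU145-pc3.1 cells, 9 without treated DU145-Esrrb library a, and 9 by DESeq2. GINS3, MCM6, PCNA, RFC5, CHAF1B and GINS4 lost the call in 2 to 7 of the 8 fits that leave out 1 library, with adjusted p up to 0.14. The junction offset without treated DU145-Esrrb library a or b left 4 and 5 members with a difference.

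**Figure D5:**
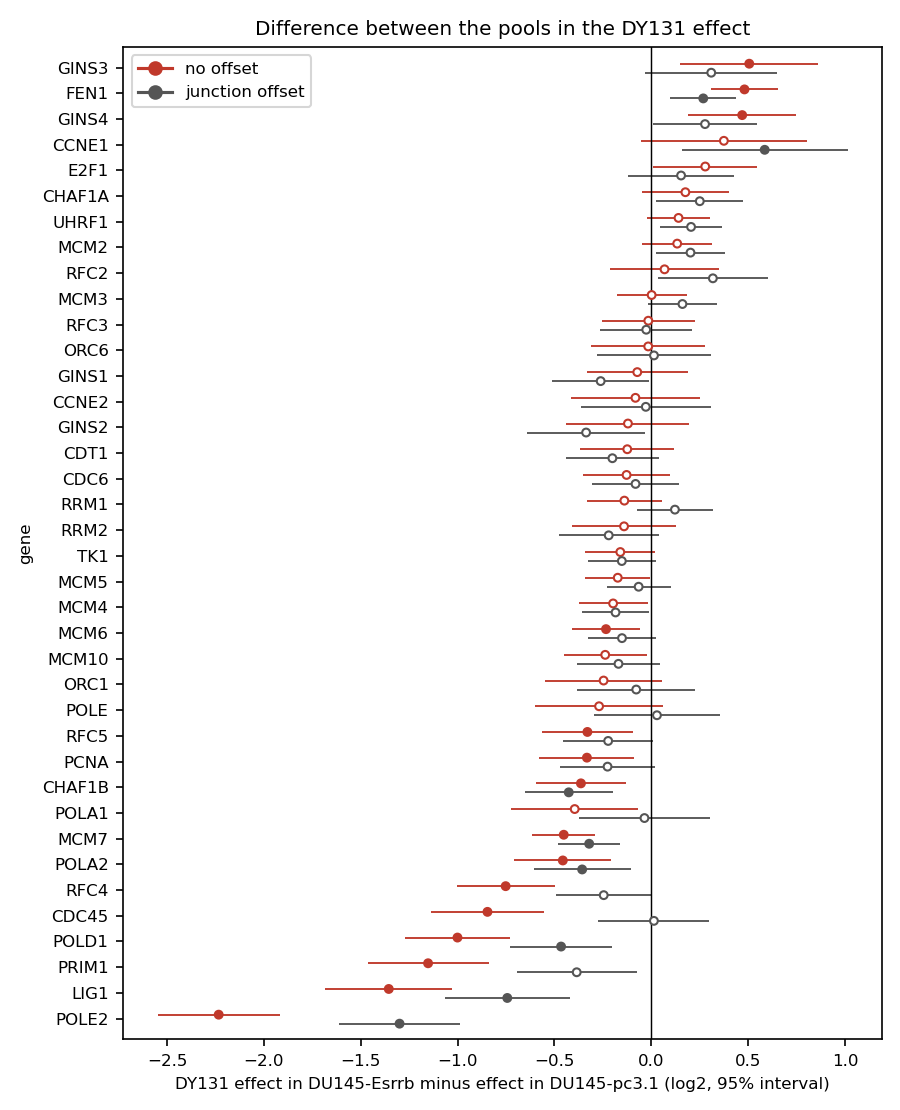
Difference between the pools in the DY131 effect for the 38 genes on the log2 scale with 95% intervals, without an offset (red) and with the junction offset (grey), with filled points at an adjusted p under 0.05. POLE2, LIG1 and POLD1 stay left of 0 in both fits, while the points of CDC45 move from -0.85 to 0.01.

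Further replication genes that are not among the 38 were described from lists chosen with earlier results of these data known. Of 44 other replication genes, 22 rose and 2 fell with DY131 in DU145-pc3.1 cells, and 11 rose and 14 fell in DU145-Esrrb cells. Of all tested genes 18.9% rose and 18.5% fell in the first comparison and 29.2% and 29.5% in the second, so the counts in DU145-Esrrb cells were close to the background. Their medians were 0.21 and -0.05, and with the junction offset 9 rose and 11 fell in DU145-Esrrb cells. CLSPN, a mediator of the replication checkpoint, rose in both pools, by 1.07 and 1.00. POLD4, the smallest subunit of polymerase delta, fell by 1.02 and 0.88 on the log2 scale, with 61.2% of its windows shared with other genes.

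In DU145-Esrrb cells, RPA3 fell by 1.71, RNASEH2B by 1.47, DUT by 1.35 and TYMP by 1.97 on the log2 scale. None of these was called as a fall of at least 2-fold in DU145-pc3.1 cells. RPA3 is a subunit of the single-stranded DNA binding protein RPA, RNASEH2B a subunit of RNase H2, which removes ribonucleotides from DNA, DUT the dUTPase that keeps uracil out of DNA, and TYMP thymidine phosphorylase. The interaction passed for all 4, at -1.45, -1.69, -1.33 and -1.70. Their junction shares were 17.4%, 9.0%, 13.8% and 27.9%, and with the junction offset their log2FC in DU145-Esrrb cells were -1.70, -1.67, -1.41 and -1.74. TYMP shares 21.8% of its windows with other genes. PRIM2, the other primase subunit, rose by 0.46 in DU145-pc3.1 and fell by 0.58 in DU145-Esrrb cells, and it shares 31.3% of its windows.

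Of 29 tested regulators of G1/S outside the 38, 16 rose and 6 fell with DY131 in DU145-pc3.1, and 15 rose and 4 fell in DU145-Esrrb cells, against the same shares over all tested genes. CDKN1A, the gene of the CDK inhibitor p21, went from 53.7 ± 3.45 cpm to 115 ± 2.99 cpm (SD, n = 2) in DU145-Esrrb cells, a log2FC of 1.10 with an adjusted p of 7.13e-08, against 0.32 in DU145-pc3.1 cells, and the interaction was 0.78 with an adjusted p of 0.00026. With the junction offset CDKN1A had 0.86 in DU145-Esrrb cells and an interaction of 0.55. E2F7, a repressor among the E2F genes, rose by 1.19 and 0.96 in the pools. CDKN1C, the gene of p57, fell by 0.98 and 1.02 on the log2 scale at under 4 cpm. MYC had 0.02 and 0.17, of which only the second passed (adjusted p 0.0275), and with the junction offset it did not, at -0.06. CCNA2, the gene of cyclin A2, rose by 0.30 in DU145-pc3.1 and fell by 0.35 in DU145-Esrrb cells, and the interaction was -0.65.

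Of 32 G2/M genes, 20 rose and 1 fell with DY131 in DU145-pc3.1 cells, and 6 rose and 13 fell in DU145-Esrrb cells, where the junction offset gave 14 and 7. The shares over all tested genes were 18.9% and 18.5% in DU145-pc3.1, 29.2% and 29.5% in DU145-Esrrb cells, and 25.6% and 27.9% with the offset. MKI67, the Ki-67 proliferation marker, rose by 0.73 and 0.72, and CDK1 had 0.11 and 0.14, neither of which passed. Of 6 epithelial markers, 3 fell and 1 rose with DY131 in DU145-pc3.1, and 3 fell and 2 rose in DU145-Esrrb cells. CLDN4, an epithelial tight junction gene, fell by 1.06 and 1.49 on the log2 scale in the pools, and by 0.57 with Esrrb alone. LYZ, a leukocyte gene at group means of at most 1.41 cpm, had -2.18 under DY131 in DU145-Esrrb cells.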

How the data were processed

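RNA of 8 DU145 samples, 2 per group, was sequenced as single 50-base reads in 1 lane. The authors cleaned the reads with FASTX-Toolkit, aligned these by TopHat2 (genome build hg18), and deposited raw counts per gene made by their program MULTICOM-MAP. How it treated strand or shared reads is not given in the sources used here. Groups come from the sample labels. The 2 columns of treated DU145-Esrrb cells have the same heading and are called library a and b. The members and lists were chosen with earlier results of these data known. Named are all members by role, with full values for those altered at least 2-fold and for MCM2, PCNA, E2F1, CCNE1 and CCNE2, list genes altered at least 2-fold, and CDKN1A, MYC, CCNA2, CDK1 and MKI67. CDC45, MCM10 and FEN1 got library values after theirs were seen.

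Counts were tested with edgeR 4.0.16 in R 4.3.3 (TMM, 1 or more cpm in 2 libraries or more, 1 quasi-likelihood model of 4 groups, Benjamini-Hochberg adjustment). Changed means an adjusted p under 0.05, and altered also an absolute log2FC of at least 1. P-values rest on the spread between 2 replicates a group, in an estimate that the 4 groups share. The treated DU145-pc3.1 pair thus also enters the tests in DU145-Esrrb cells. Total counts of 7858743 to 11551690 set the precision of low genes. The junction offset is a natural spline of 4 df per library. Junction share, length, GC content and shared windows come from GENCODE 29 on GRCh38, matched by RefSeq identifier for 22018 genes, symbol for 721 and older symbol for 147, which gave values for 98.6% of tested genes and all members. Of the gene names, 28 had become dates. Replicate numbers did not pair the samples (correlations of deviations 0.083, 0.027 and -0.069). Steps were tested on simulated data. Alternatives included DESeq2 1.42.0.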

Additional observations from a re-analysis of the deposited data

Results flagged for a closer look

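For 15 of the 38 genes the DY131 effect differed between the pools by the test of the difference itself (edgeR's quasi-likelihood test of the interaction, adjusted p under 0.05). The effect in DU145-Esrrb minus that in DU145-pc3.1 cells, on the log2 scale, was -2.23 for POLE2, -1.36 for LIG1, -1.15 for PRIM1, -1.001 for POLD1, -0.85 for CDC45, -0.75 for RFC4, -0.46 for POLA2, -0.45 for MCM7, -0.36 for CHAF1B, -0.33 for PCNA, -0.33 for RFC5 and -0.23 for MCM6. It was 0.47 for GINS4, 0.48 for FEN1 and 0.51 for GINS3. The 12 lower members were above the median junction share, where 28.8% of all tested genes were lower. The 3 higher ones were at or below it, where 26% were higher. With the junction offset, POLE2, LIG1, POLD1, POLA2, MCM7, CHAF1B and FEN1 kept an adjusted p under 0.05, at -1.30, -0.74, -0.47, -0.36, -0.32, -0.43 and 0.27.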

How the results depend on the processing

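Counts of members changed by Esrrb (0), by DY131 in DU145-pc3.1 (25) and by DY131 in DU145-Esrrb cells (29) stayed within 1.5 times under every alternative run, and lay at 0, 18 to 29 and 23 to 31 when 1 library was left out. With DY131 in DU145-Esrrb cells 32 changed when fitted on the 4 libraries alone. The 8 falls there became 12 under scaling by library size alone, 11 with the 4 libraries alone and 11 with the length and GC offset. For the interaction, 15 members changed, 9 with DESeq2, 8 with the junction offset, and 9 to 23 when 1 library was left out. In a setting chosen after seeing the data, the junction offset without treated DU145-Esrrb library a or b, it was 4 and 5. The 4 members altered at least 2-fold by DY131 in DU145-Esrrb cells became 0 with the junction offset, 1 with length and GC content added, and 0 and 1 with the offset and without library a or b. For the interaction the 4 became 1 in each of these settings. CDC45 was reversed for DY131 in DU145-Esrrb cells, from -0.42 to 0.50 with the junction offset, 0.31 with length and GC content added, and 0.48 and 0.51 without library a or b, and for the interaction from -0.85 to 0.013 and, without library b, 0.023. The offset's construction lowers the part of a value that follows junction share. With the junction offset, genes with a share of 45% to 50%, CDC45 among them, had a median of 0.21 for DY131 in DU145-Esrrb cells. Without replicate 1 of treated DU145-pc3.1 cells, the median log2FC of the members there was 0.39 in place of 0.30. With the replicate block on the 6 numbered libraries, 23 members changed for DY131 in DU145-pc3.1 cells, as in the same libraries unblocked, and 0 for Esrrb. Scaling by library size alone moved the median of all genes by less than 0.1. The exact test and the 4-library fits give no interaction.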
